A study of Mus musculus with 12 samples.

Results

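To find candidate sites that were active in cortical interneurons (CINs) and repressed in the other cells of the same cortex, stretches of H3K27ac in CINs were set against H3K27me3 in non-CINs. Neighbouring peaks of a list were merged when the gap between them was 500 bp or less. A stretch was defined as sequence shared by the merged peaks of both CIN H3K27ac replicates. There were 35768 such stretches. An H3K27me3 peak overlapped 766 of them by at least 1 bp in both non-CIN replicates, which was 2.14% of all stretches (95% Wilson interval 2.00% to 2.30%). The count was 363 to 367 when H3K27me3 had to cover 50% or the centre of a stretch or −log10 q had to be at least 4, 1338 without non-CIN H3K27me3 replicate 1 and 1658 without CIN H3K27ac replicate 2. A further 861 stretches (2.41%) met H3K27me3 in 1 non-CIN replicate, and 34141 (95.5%) met none.

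All cells came from cerebral cortices of Gad67-GFP heterozygote pups at postnatal day 2 (P2), with tissue pooled over 2 to 3 litters. Dissociated cells were sorted into GFP+ CINs and GFP- non-CINs, and native ChIP for H3K27ac and H3K27me3 was performed in 2 independent replicate experiments. The data are 8 lists of broad peaks, 2 for each mark and population, and 4 matched inputs entered through the authors' peak calling. The GFP+ gate takes GABAergic cells of every subtype together, and the GFP- fraction mixes glutamatergic projection neurons (PNs) with glia and other cells, so that a peak in either population can come from a part of its cells. The lists hold 36662 to 62505 peaks each and give no read depth, so the absence of a peak means only that none was called.

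H3K27ac is placed on nucleosomes of active promoters and enhancers. H3K27me3 is placed on the same lysine by Polycomb repressive complexes, and is known for covering developmental regulators in lineages that do not use them. A histone tail carries only 1 of these marks at that lysine, but a population of cells can give peaks of both at a locus, from different cells, alleles or neighbouring nucleosomes, and these sources cannot be told apart in the lists.

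The labels were checked against marker genes, as base pairs of peak within 5 kb of a start. Gad1, Slc32a1, Dlx1 and Dlx2, which mark GABAergic neurons, had H3K27ac in both CIN lists (4494 to 10258 bp) and in no non-CIN list. Gad2, another such marker, had it in both CIN lists (9279 and 7857 bp) and also in both non-CIN lists (215 and 652 bp). Lhx6, a marker of interneurons from the medial ganglionic eminence (MGE), had no H3K27ac in any list. Of the 5 excitatory markers, Neurod2 and Slc17a7 had none either, Tbr1 had 392 bp in 1 non-CIN list, and Neurod6 (1067 and 824 bp in CINs, 563 and 804 bp in non-CINs) and Emx1 had it in all 4 lists. The glial markers all had H3K27ac in both populations. Aldh1l1, Slc1a3, Aqp4, Olig1 and Olig2 had more base pairs in each non-CIN list than in either CIN list, while Pdgfra, of oligodendrocyte precursors, had the reverse (2228 and 2390 bp in CINs, 781 and 900 bp in non-CINs). Of the microglial and endothelial markers, Csf1r had 362 to 1310 bp of H3K27ac in every list, Pecam1 had 213 bp in 1 CIN list, and Cx3cr1, Tmem119, Cldn5 and Flt1 had none. The part of glial cells in the CIN acetylation at these loci was not tested.

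The most selective pattern was H3K27ac in both CIN lists and neither non-CIN list combined with H3K27me3 in both lists of non-CINs but no list of CINs. It was found at 31 stretches (0.0867% of all), called opposed stretches here. The count was 13 to 15 with H3K27me3 over the centre or 50% of the stretch or with −log10 q of at least 4, 125 without non-CIN H3K27me3 replicate 1 and 62 without CIN H3K27ac replicate 2. The central 200 bp of the 5 opposed stretches with the highest CIN H3K27ac are printed from the mm10 reference, forward strand, because they show the sequence at sites of this pattern where CIN acetylation ranked highest. They were ranked on CIN H3K27ac alone, and non-CIN H3K27me3 reached only part of each stretch in at least 1 replicate. In 1 replicate it did not reach the printed bases at Nbea, Grik3 or Fam155a. Capitals mark matches to 3 short motifs searched on both strands, TAATTA (the core bound by DLX homeodomains), CTTTGT (the core bound by SOX factors) and CTGTCA (the core bound by MEIS factors). Each is named after its nearest protein-coding start.

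The Sulf2 sequence is chr2:166360097-166360296, Zfp184 chr13:21897278-21897477, Grik3 chr4:125319157-125319356, Nbea chr3:56182217-56182416 and Fam155a chr8:9771454-9771653.
Sulf2: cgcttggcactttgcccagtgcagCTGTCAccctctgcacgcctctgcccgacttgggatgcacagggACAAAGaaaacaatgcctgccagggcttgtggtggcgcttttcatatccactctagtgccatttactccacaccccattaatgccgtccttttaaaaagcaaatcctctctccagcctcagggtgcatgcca
Zfp184: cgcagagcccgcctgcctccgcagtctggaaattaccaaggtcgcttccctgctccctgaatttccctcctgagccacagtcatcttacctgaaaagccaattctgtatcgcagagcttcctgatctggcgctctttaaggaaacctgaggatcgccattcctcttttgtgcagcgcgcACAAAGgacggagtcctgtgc
Grik3: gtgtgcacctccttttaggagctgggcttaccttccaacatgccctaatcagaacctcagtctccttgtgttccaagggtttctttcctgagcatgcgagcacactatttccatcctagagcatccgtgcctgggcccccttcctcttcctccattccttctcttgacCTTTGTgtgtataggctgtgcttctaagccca
Nbea: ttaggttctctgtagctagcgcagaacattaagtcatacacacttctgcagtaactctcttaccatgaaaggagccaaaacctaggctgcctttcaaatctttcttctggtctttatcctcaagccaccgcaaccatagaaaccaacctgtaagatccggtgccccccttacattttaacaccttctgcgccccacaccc
Fam155a: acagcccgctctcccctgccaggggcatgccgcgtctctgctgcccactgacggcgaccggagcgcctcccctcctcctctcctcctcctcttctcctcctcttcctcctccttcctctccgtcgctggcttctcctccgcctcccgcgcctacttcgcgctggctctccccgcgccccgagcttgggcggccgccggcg

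Their GC content ran from 47% (Nbea) and 51.5% (Grik3) to 72.5% (Fam155a, with 21 CpG dinucleotides in 200 bp). The Sulf2, Zfp184 and Grik3 sequences held a SOX core each, and Sulf2 also held a MEIS core. None of the 5 held the DLX core, and the Nbea and Fam155a sequences held none of the 3.

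How often CIN H3K27ac stretches met H3K27me3 was first compared between populations. In non-CINs, H3K27me3 met 1055 stretches (2.95%) in replicate 1 and 1338 (3.74%) in replicate 2. In CINs themselves it met 840 (2.35%) and 1395 (3.90%). The populations overlapped, since the CIN values lay on either side of the non-CIN values. The mean share was 3.35% ± 0.559 in non-CINs and 3.12% ± 1.10 in CINs (SD, n = 2 each), a difference of 0.221 percentage points (exact permutation test over the 4 lists, two-sided, p = 1; the smallest p that 2 against 2 allows is 0.333). The direction of this difference turned to -0.175 points when non-CIN replicate 2 was left out. Both CIN lists met 689 stretches, 1.93% of all.

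The stretches were then divided by whether non-CINs were acetylated at them too, which the choice of the 766 did not use. No non-CIN H3K27ac was called at 200 of the 766 (26.1%, interval 23.1% to 29.3%), against 12.8% of all 35768 stretches and 12.4% of those with no non-CIN H3K27me3. The non-CIN replicates differed here: of stretches that met H3K27me3 in replicate 1 alone, 8.30% lacked non-CIN H3K27ac, which was below the share with none, while of those that met it in replicate 2 alone 143 of 572 (25%) did. Non-CIN H3K27ac was called in 1 replicate at 132 of the 766 and in both at 434, so most stretches under non-CIN H3K27me3 were acetylated in non-CINs as well. When H3K27me3 had to cover the centre of the stretch in both replicates, 39.0% lacked non-CIN H3K27ac.

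Divided the other way, 4590 stretches had no non-CIN H3K27ac. At these the share was 4.88% and 7.47% in non-CIN replicates 1 and 2, and 2.85% and 5.19% in CIN replicates 1 and 2. Non-CINs were higher than CINs within each replicate number, and replicate 2 was the higher in both populations. Taken without regard to number the groups overlapped, since the lower non-CIN value lay under the higher CIN value. At the 27492 stretches acetylated in both non-CIN replicates the shares were 2.45% and 2.76% in non-CINs and 2.12% and 3.42% in CINs. There the CIN values again lay on either side of the non-CIN values, and the order differed between replicate numbers.

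**Figure D1:**
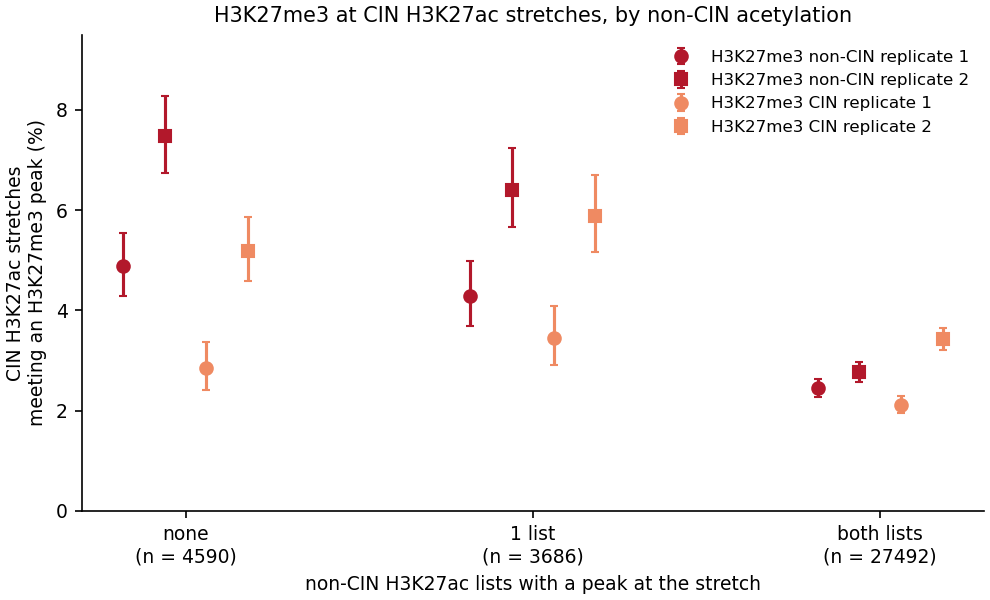
Share of CIN H3K27ac stretches that met an H3K27me3 peak (y axis, %), by the number of non-CIN H3K27ac lists with a peak there (x axis), for each of the 4 H3K27me3 lists; bars are 95% Wilson intervals, which cover counting error only. Non-CIN shares ran from 4.88% and 7.47% without non-CIN acetylation to 2.45% and 2.76% with it in both lists.

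Most of the 766 stretches also carried H3K27me3 in CINs. It was called in both CIN lists at 469 (61.2%), in 1 at 225 and in neither at 72 (0.201% of all stretches). The most frequent combination, at 281 stretches, was both marks in all lists of both populations. H3K27me3 in all 4 lists with acetylation in CINs alone was found at 113 stretches. In the reverse direction, both CIN lists and neither non-CIN list had H3K27me3 at 104 stretches (0.291%), and 95 of these were acetylated in both non-CIN lists. The exact reverse of the opposed pattern in H3K27me3, with CIN H3K27me3 alone and no non-CIN H3K27ac, occurred at 1 stretch, at the start of Kcnk1, which encodes a potassium channel.

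**Figure D2:**
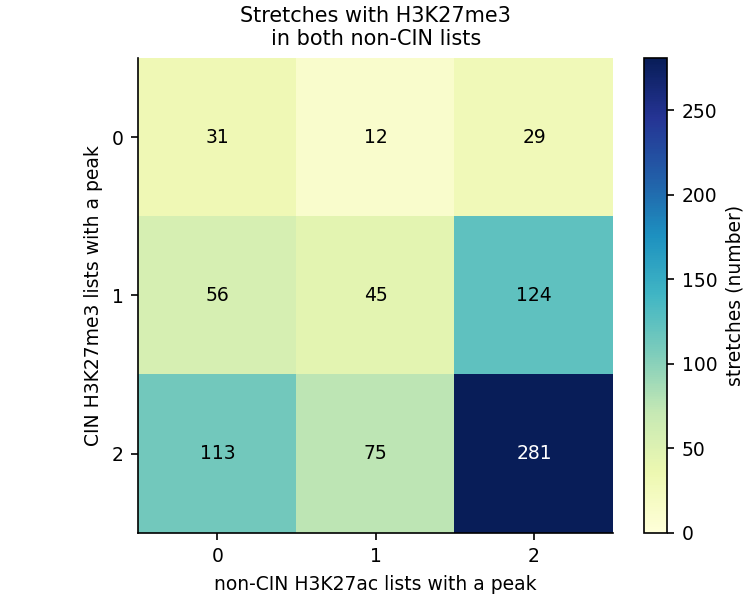
Number of the 766 stretches with H3K27me3 in both non-CIN lists, by the number of non-CIN H3K27ac lists (x axis) and of CIN H3K27me3 lists (y axis) with a peak; color gives the number printed in each cell. The 31 opposed stretches are at top left, and the largest cell (281) holds stretches with both marks in every list.

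Where H3K27me3 was called in all 4 lists, its height was compared as the percentile of the highest overlapping peak, by fold enrichment over input, among all peaks of its own list. At the 113 stretches without non-CIN H3K27ac the median percentile was 96.2 in both non-CIN lists, and 87.5 and 93.1 in the CIN lists. Both non-CIN medians were above both CIN medians, by 5.85 points on average (exact permutation test, two-sided, p = 0.333, the smallest possible). At the 281 stretches acetylated in both non-CIN lists the medians were 80.5 and 89.0 in non-CINs and 83.2 and 90.9 in CINs, and these overlapped (difference -2.35 points, exact permutation p = 0.667). Within each replicate number the non-CIN median was the lower there. Stretch by stretch, both non-CIN percentiles were above both CIN percentiles at 70 of the 113 (61.9%) and below both at 4. Over all 469 the same held at 30.7% and 18.6%, and over the 281 at 19.2% and 25.3%. Lists differ in peak number, so a percentile ranks a peak within its list and is not a level.

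The 31 opposed stretches were described next. They lay nearest to 31 different protein-coding genes. Ranked by the lower of their 2 CIN H3K27ac percentiles, the first was a 955 bp intergenic stretch at chr2:166359720-166360674, 204534 bp upstream of Sulf2, which encodes a sulfatase that edits heparan sulfate. Its H3K27ac stood at percentiles 86.6 and 73.0 in the CIN lists. Non-CIN H3K27me3 there stood at percentiles 6.13 and 55.2, and covered the whole stretch in replicate 2. A high H3K27ac rank was thus paired with a low or middling H3K27me3 rank.

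The stretch nearest Zfp184, a zinc finger gene, ranked second (88.4 and 71.2). The third lay 171443 bp upstream of Grik3, which encodes a kainate receptor subunit, at chr4:125318505-125320009 (84.8 and 70.5). A 443 bp stretch in an intron of Nbea, whose product acts in membrane traffic at synapses, lay 1384 bp downstream of a start (68.3 and 72.5). The fifth, 1766 bp long at chr8:9770671-9772436, was at the promoter of Fam155a, a subunit of a sodium leak channel complex (67.8 and 71.2), and had non-CIN H3K27me3 at percentiles 56.7 and 84.3. These 5 therefore include 1 protein-coding promoter and 1 intron, with the others 47716 bp or more from a protein-coding start.

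The next 10 by the same ranking were nearest Sec14l1, Aldh1b1, Chga, Kif5a, Gm26897, Msx3, Fancc, Atp6v1g3, Nr2f2 and Ly6h. The stretch near Sec14l1 had the highest non-CIN H3K27me3 of the 15 in both lists (percentiles 98.2 and 91.2, covering it whole). Chga, which encodes the dense-core vesicle protein chromogranin A, Kif5a, a neuronal kinesin, and Ly6h, a modulator of nicotinic receptors, had their opposed stretch within 302 bp of a start. Nr2f2, the CGE regulator COUP-TFII, had a 1399 bp stretch 256250 bp downstream of its nearest start, with H3K27ac at percentiles 59.6 and 51.5. Bcl11b, a zinc finger regulator of deep-layer PNs, had a 226 bp stretch 368 bp upstream of a start, covered whole by H3K27me3 at percentiles 89.7 and 82.9 in non-CINs. Its CIN H3K27ac differed between lists (75.4 and 28.4).

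As a set, the 31 were short, with a median of 485 bp (range 206 to 1766). A promoter, counting starts of coding and non-coding transcripts from 1 kb upstream to 100 bp downstream, was at 9 of them (29.0%), an intron at 8 and intergenic sequence at 14. Their non-CIN H3K27me3 was of lower rank than that of all 766, with median percentiles of 41.9 and 60.8 against 74.97 and 87.1. H3K27me3 covered at least 50% of the stretch in both non-CIN lists at 10 of the 31.

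The absence of CIN H3K27me3 was local in at least 1 CIN list at most of the 31. Taking the nearer list, a CIN H3K27me3 peak lay a median of 394 bp from the stretch, within 1 kb at 20 of the 31 and within 5 kb at 25. The replicates could differ widely, with 19353 and 94 bp near Ttll11 and 281 and 94047 bp near Gm26897 in replicates 1 and 2. Distances were not taken for other stretches. At the Fam155a promoter a CIN H3K27me3 peak ended 5 bp away in replicate 1, and 126 and 187 bp away in the 2 replicates at Sec14l1. The 6 stretches with none within 5 kb were those nearest Zfp184, Kif5a, Foxo6, Kif2a, Abcd4 and Sik1. Non-CIN H3K27ac was farther away, at a median of 13237 bp, and within 1 kb at 2 stretches, nearest Nbea and Cd83. Whether calling at peak edges made some of these stretches opposed was not tested.

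**Figure D3:**
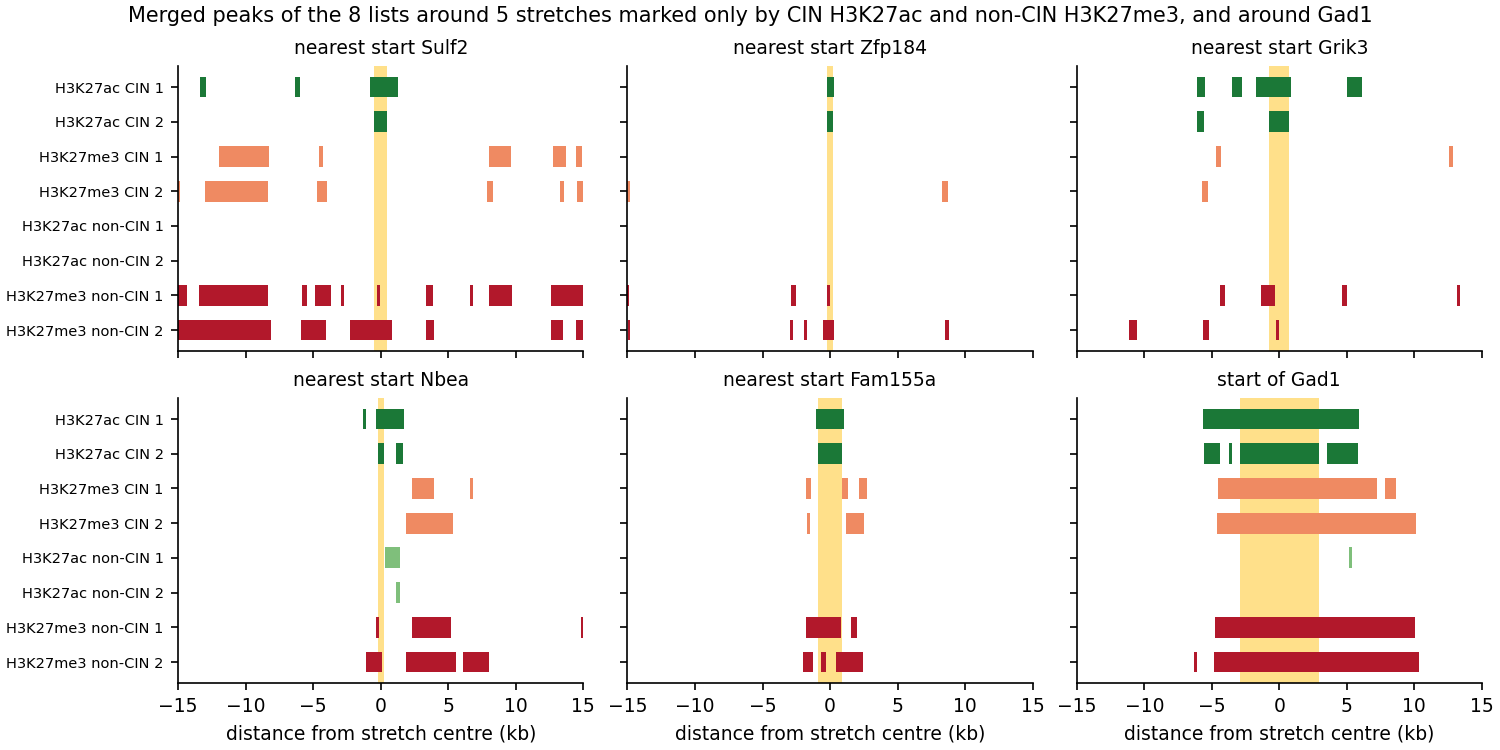
Merged peaks (bars) of the 8 lists within 15 kb of the centre of a stretch (x axis, kb; y axis, list and replicate), for the 5 first-ranked opposed stretches and for the stretch at the Gad1 start; the yellow band is the stretch. CIN H3K27me3 is missing from the 5 bands but lies close by at Fam155a, and at Gad1 it spans the band in both CIN lists.

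Length and position were compared between the 766 and the 34141 stretches with no non-CIN H3K27me3. The median length was 1115 bp against 814 bp, a ratio of 1.37. The direction turned when H3K27me3 had to cover the centre, with medians of 635 and 827 bp, a ratio of 0.768. The share that met H3K27me3 in both non-CIN lists was 1.64% of stretches under 500 bp and 20.4% of the 269 stretches of 5 kb or longer. H3K27me3 covered a median of 57.8% of the 766 stretches in non-CIN replicate 1 and 76.6% in replicate 2, and 228 (29.8%) were covered whole in both.

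The 766 lay closer to genes. The median distance from centre to the nearest protein-coding start was 2635 bp, against 20918 bp with no H3K27me3. It was 1271 bp for stretches that met H3K27me3 in non-CIN replicate 1 and 5856 bp for those that met it in replicate 2, when either list was taken alone. A promoter was at 366 of the 766 (47.8%) against 31.1%. The share of stretches under H3K27me3 of both lists was not highest at starts themselves: it was 2.76% within 1 kb of a start, 6.26% from 1 to 5 kb, and between 1.21% and 1.53% in the 3 classes beyond 5 kb. Promoter shares came close once H3K27me3 had to cover the centre, at 35.4% against 31.7%, and the difference fell to 5.80 points when all peaks needed a −log10 q of at least 4 (47.7% against 41.9%). Within the class of short stretches, under 500 bp, 49.5% of those under H3K27me3 of both lists lacked non-CIN H3K27ac, against 25.3% of those with none.

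Non-CIN replicates differed in kind. The 289 stretches that met H3K27me3 in replicate 1 alone were mostly promoters (79.9%), lay a median of 380 bp from a start and had a GC content of 60.8% at their centres. The 572 that met it in replicate 2 alone were promoters in 31.5% of cases and lay a median of 23186 bp from a start. The difference in promoter share between the 766 and the stretches with none, 16.7 points, stood against an SD of 11.4 points between the values from each non-CIN list alone. Peaks on chromosome X made up 1.71% of the list in replicate 1 and 5.203% in replicate 2 of the non-CINs, and 1.84% and 5.27% in the CINs.

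**Figure D4:**
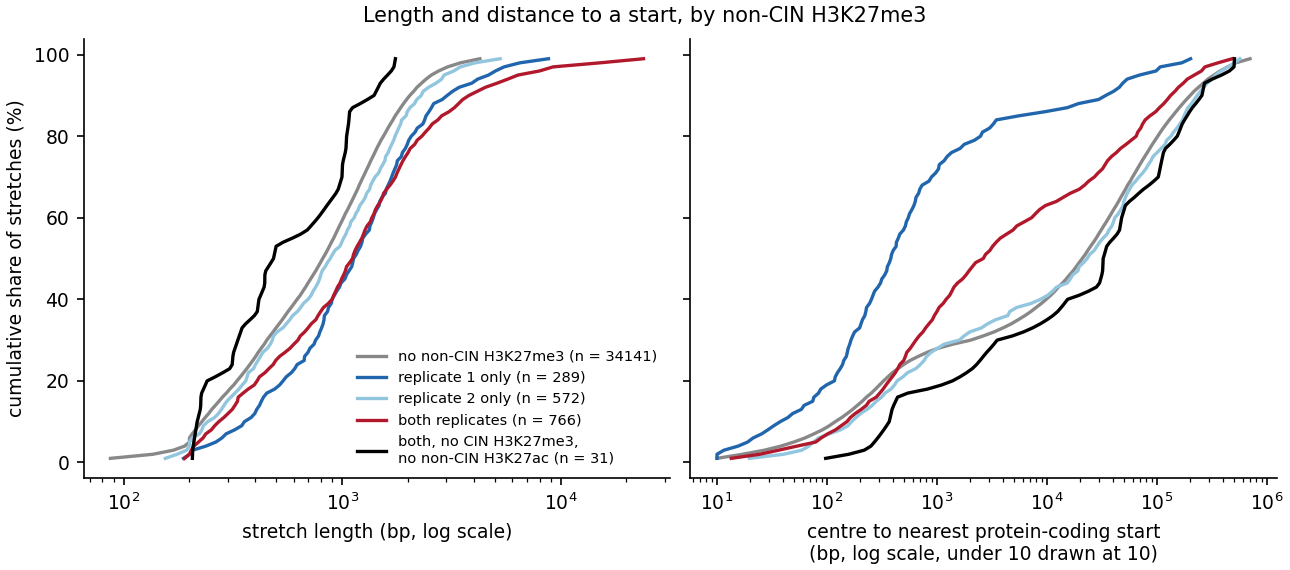
Cumulative share of stretches (y axis, %) by length (left) and by distance from the centre to the nearest protein-coding start (right), both in bp on log axes, for classes of non-CIN H3K27me3 with the number of stretches in each. Stretches that met H3K27me3 in replicate 1 only lie closest to starts, and the 31 opposed stretches have the lowest median length (485 bp).

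Genes were counted where a CIN H3K27ac stretch lay within 5 kb of a protein-coding start. Of 11938 such genes, 418 (3.5%) had 1 under H3K27me3 of both non-CIN lists, 178 (1.49%) had 1 whose centre was covered in both, 86 (0.72%) had 1 without non-CIN H3K27ac, and 35 (0.293%) had 1 without H3K27me3 in either CIN list. Ribosomal protein genes, as housekeeping genes, had none among 20, and genes for enzymes that write or erase H3K27 marks had none among 12. The remaining lists were of developmental and cell type genes, and each is set against the 3.5%. H3K27me3 of both CIN lists gave similar counts, at 433 of the 11938 genes (3.63%). By list it was at 11 of 14 Dlx and subpallial genes, 3 of 7 GABA genes and 7 of 7 pallial neurogenic factors.

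Dlx genes and other regulators of the subpallium, where CINs are born, had such a stretch at 12 of 14 genes. At Dlx1, Dlx2, Dlx5, Dlx6, Sp8 and Sp9 non-CIN H3K27ac was absent from it. Around the start of Dlx1, H3K27ac covered 10001 and 8663 bp of a 10001 bp window in CIN replicates 1 and 2 and 0 bp in both non-CIN lists. H3K27me3 covered 9739 and 10001 bp in CINs and the whole window in both non-CIN lists. The Dlx1 and Dlx2 locus thus carried broad H3K27me3 in both populations and H3K27ac in CINs alone, and 1 stretch of 21683 bp there spanned both genes.

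H3K27me3 ranked higher in non-CINs at these genes. Its percentile at Dlx1 was 99.8 and 99.7 for non-CINs, against 97.6 and 99.3 for CINs. At Sp8, a zinc finger regulator, non-CINs stood at 99.3 and 99.4, against 97.0 and 99.2. Dlx6, with its partner Dlx5 in a stretch of 26397 bp, stood at 99.01 and 99.4 for CINs and at 99.9 in both non-CIN lists. Both non-CIN percentiles were above both CIN percentiles at all 6 genes without non-CIN H3K27ac. These gene values are of the window within 5 kb of the starts. By stretch, an unlike measure, the same held at 61.9% of the 113 of that kind. Dlx1 and Dlx2 share a stretch, and so do Dlx5 and Dlx6, so the 6 genes are not separate loci. Gsx2, Meis1, Meis2 and Pbx3 had H3K27ac in both populations. Of the 12, 7 kept the call when H3K27me3 had to cover a stretch's centre, namely the 6 without non-CIN H3K27ac and Gsx2.

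Genes for making and packaging GABA had a stretch under non-CIN H3K27me3 at 3 of 7, and 2 of these, Gad1 and Slc32a1, lacked non-CIN H3K27ac at it. Gad1, the GABA-synthesizing enzyme whose reporter defined the sort, had H3K27ac over 10258 and 8460 bp in CINs and 0 bp in non-CINs. Non-CIN H3K27me3 covered 9376 and 9625 bp at percentiles 99.1 and 98.9, and CIN H3K27me3 9206 and 9235 bp at percentiles 93.4 and 97.3. Slc32a1, the vesicular GABA transporter, had non-CIN H3K27me3 at percentiles 99.5 and 98.9, against 96.6 and 98.8 for CINs. Gad2, the other GABA-synthesizing enzyme, had a little non-CIN H3K27ac (215 and 652 bp against 9279 and 7857 bp in CINs). At all 3 genes both non-CIN percentiles, taken over the window around the starts, were above both CIN percentiles. By stretch, this held at 30.7% of all with H3K27me3 in the 4 lists, and at 61.9% of the 113 without non-CIN H3K27ac. The centre of a stretch was covered in both non-CIN lists at all 3 genes.

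Regulators of interneurons from the caudal ganglionic eminence (CGE) had a stretch under non-CIN H3K27me3 at 6 of 9 genes (Nr2f1, Nr2f2, Prox1, Npas1, Npas3 and Nr2e1), and only Npas1 among these lacked non-CIN H3K27ac at it. Those of the MGE had 1 of 5, Sox6, which was acetylated in both populations. Receptors that guide interneuron migration had 5 of 11 (Erbb4, Ackr3, Robo2, Plxna4 and Gfra1), all acetylated in non-CINs too, and only Erbb4, the neuregulin receptor, kept it when the centre had to be covered. Of 19 interneuron subtype markers, 1 had a CIN H3K27ac stretch at its start, and it was not under non-CIN H3K27me3.

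Genes of the glutamatergic and glial lineages appeared as well. Pallial neurogenic factors had 6 of 7 (Pax6, Emx1, Emx2, Lhx2, Insm1 and Id4), all acetylated in both populations, and 2 of 7 with the centre covered (Emx1 and Lhx2). Emx1, a pallial homeobox gene, had 3084 and 1458 bp of CIN H3K27ac and 2963 and 3833 bp of non-CIN H3K27ac, so the groups overlapped. Its H3K27me3 stood at percentiles 75.7 and 92.7 for non-CINs, below 95.6 and 97.7 for CINs. Of the 6 genes, Pax6, Emx2 and Id4 likewise had both CIN percentiles above both non-CIN percentiles in the window around their starts. By stretch, this order held at 18.6% of the 469, and at 25.3% of the 281 acetylated in both non-CIN lists. Lhx2 overlapped, and Insm1 had the order of Gad1 (97.2 and 98.0 for non-CINs, 78.1 and 95.6 for CINs).

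Cortical layer factors had 6 of 15 (Fezf2, Bcl11b, Cux2, Pou3f2, Pou3f3 and Nr4a2), and Bcl11b was the only gene of these lists with an opposed stretch within 5 kb of a start. Glutamate transporters and receptors had 3 of 10 (Slc17a6, Grin2b and Grik3), and Slc17a6 and Grik3 had a stretch without non-CIN H3K27ac, as many genes as Gad1 and Slc32a1 among the GABA genes. Slc17a6, a vesicular glutamate transporter, had modest CIN H3K27ac (1155 and 991 bp, percentiles 33.0 and 27.1) and H3K27me3 above percentile 99 in all 4 lists. Oligodendrocyte genes had 5 of 10 (Olig1, Olig2, Sox10, Pdgfra and Nkx2-2), each acetylated in both populations, and astrocyte genes 3 of 13 (Slc1a2, Sox9 and Hes5), none with the centre covered. Around the starts of Sox10, Nkx2-2, Slc1a2, Sox9 and Hes5 the base pairs of H3K27ac overlapped between populations. The part of glial cells in the CIN acetylation was not tested here either.

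In the smaller lists, the patterning regulator Otx1 had such a stretch, and so did Wnt7b, Bmp7 and Fgf15, which were 3 of 6 secreted ligands. None of the 18 Hox genes, which the forebrain does not express, had a CIN H3K27ac stretch at its start. At the 2 microglial and 2 endothelial genes with a stretch, no stretch met non-CIN H3K27me3. Sox18, 1 of the endothelial genes, had H3K27me3 within 5 kb of its start in all 4 lists (6108 to 6562 bp).

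**Figure D5:**
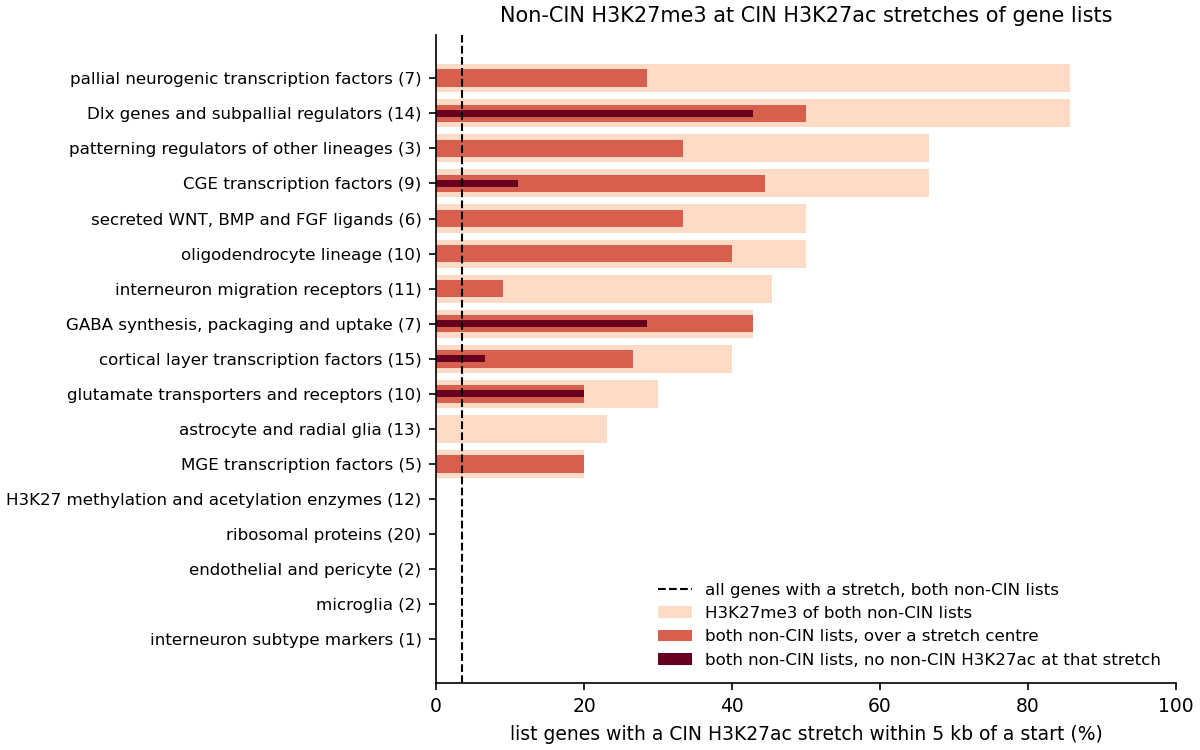
Share of list genes (x axis, %) with a CIN H3K27ac stretch within 5 kb of a start that had 1 under H3K27me3 of both non-CIN lists (pale), with the centre covered (mid) or without non-CIN H3K27ac (dark); numbers of genes with a stretch follow the list names, and the dashed line marks all genes (3.5%). Dark bars are at Dlx and subpallial genes (6 of 14), GABA genes (2 of 7), glutamate genes (2 of 10), CGE factors (1 of 9) and layer factors (1 of 15), while pallial factors have none.

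Some genes had several of the 766 stretches nearest to them. The 759 on assembled chromosomes lay nearest to 586 genes, of which 479 had 1, 67 had 2 and 40 had 3 or more. Nr2f2 had 8, and Bcl11b, Ets1, Grik3, Nkx2-2, Nxph1 and Pmfbp1 had 5 each. Counting all CIN H3K27ac stretches, 12 lay nearest Nr2f2 and also Grik3, 9 Bcl11b, 8 Ets1 and also Pmfbp1, 15 Nxph1 and 5 Nkx2-2, so that every stretch nearest Nkx2-2 was under non-CIN H3K27me3. At Bcl11b 4 of the 5 lacked non-CIN H3K27ac, while at Nr2f2 2 of the 8 did. Grik3 had 5, of which 4 lacked non-CIN H3K27ac, among them the opposed stretch upstream and 1 at the promoter with H3K27me3 in all 4 lists.

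The 10 of the 766 with the highest CIN H3K27ac were of another kind. Stretches nearest Rpusd4, Gm10800, Gm10801 (2 stretches) and Gm10722, and 1 on an unplaced contig, stood at percentile 97.4 or higher for both marks in the CIN lists. They were 484 to 2162 bp long, and 5 of these 6 were the stretches of the 766 at or above percentile 99 in both CIN lists of both marks, each acetylated in a non-CIN list. No genomic regions were excluded here before ranking, and the names give only the nearest start. Long acetylated domains nearest Mef2c, Tmem161b and Pou3f3 (7925 to 38489 bp) were also among the 10. Centred 156272, 124785 and 8686 bp from those starts, these domains had H3K27ac above percentile 99 in all 4 H3K27ac lists. In these, H3K27me3 covered between 6.1% and 43.0% in each non-CIN list.

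The 5 longest of the 766 lay nearest Mef2c (38489 bp), Nr2f1 (36431 bp), Rhbg (35695 bp), Meis2 (34705 bp) and Sox2 (32300 bp). Their centres were 156272, 16179, 38117, 5359 and 2773 bp from those starts, in this order. The stretch nearest Mef2c was centred within the gene C130071C03Rik, and that nearest Rhbg within Gm3764. Apart from the ammonium transporter Rhbg, the nearest genes encode transcription factors of neural development. All 5 were acetylated in both non-CIN lists and had H3K27me3 in both CIN lists. Nr2f1 was the most covered, with non-CIN H3K27me3 over 63.1% and 63.5%.

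Sequence at stretch centres was compared last. Mean GC content of the central 200 bp was 53.8% for the 766 and 51.7% for stretches with none, a difference of 2.06 points against an SD of 2.11 between the values from each non-CIN list alone, and so no larger than the spread. The DLX core was in 5.67% of the 766 and 5.42% of all stretches, the SOX core in 19.5% and 20.8%, and the MEIS core in 12.4% and 14.5%. Among the 31 opposed stretches these cores were in 4 (12.9%, interval 5.13% to 28.9%), 9 (29.0%, 16.1% to 46.6%) and 7 (22.6%, 11.4% to 39.8%). All 3 intervals include the share over all stretches.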

How the data were processed

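H3K27ac and H3K27me3 were measured by native ChIP-seq in sorted CINs and non-CINs at P2. Per the labels and the study's methods, BWA (0.7.15) was used by the authors for alignment to mm10, and MACS2 (2.2.7 in the submitters' processing notes) for broad peaks of every replicate over its input. The 8 deposited lists give for each peak a score, a fold enrichment (a linear ratio over input), and the −log10 of its p-value and q-value. The lowest deposited −log10 q-value was 2.21. Reads per sample were not used here, so precision is given as counts of stretches, and intervals cover counting error only.

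Peaks were merged at gaps of 500 bp or less and shared stretches taken with Python (3.11.15) and NumPy (2.4.6). A merged peak includes the gaps it bridges. Overlap meant at least 1 bp. Starts, exons and introns came from the GENCODE basic annotation of mm10, sequence from the RefSeq copy of the same build, and promoters spanned 1 kb before and 100 bp after a start. The 16 stretches on unplaced contigs had no nearest gene. No p-value was computed across stretches, which are not replicates, and lists were compared with exact permutation tests, n = 2 in each group. Interval operations were tested on simulated data: 20 of 20 random sets equalled bedtools (2.31.1), and 4000 of 4000 planted stretches were put in the class they were made with.

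Genes were named by a rule: the 15 opposed stretches with the highest lower CIN H3K27ac percentile, the 10 such among the 766, the 5 longest, and members of 18 gene lists with a both-list stretch within 5 kb of a start. Others in the text (Bcl11b's cluster, Kcnk1, the genes far from CIN H3K27me3) were chosen after their values were seen. Members and lists were chosen with earlier results of these data known. Comparisons of H3K27me3 height, of distances to the nearest other peak and of list genes by covered centre were added after the data were seen. Alternatives were gaps of 0 bp and 1 kb, H3K27me3 over 50% or the centre of a stretch, −log10 q of at least 4, each list left out, other promoter, gene and GC windows, and pairing by replicate number. Some genes that the rule names are not reported here.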

Additional observations from a re-analysis of the deposited data

How the results depend on the processing

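Of 85 values for 8 results, 56 kept the direction and moved by less than the SD between non-CIN lists (for counts, by less than 1.5 times; for the difference between populations, only the direction was judged), 25 moved further and 4 turned. That SD is wide for several differences, so values within it could still change by a large factor. Requiring H3K27me3 over at least 50% of a stretch gave 364 stretches in both non-CIN lists in place of 766, a length ratio of 0.750 in place of 1.37, a promoter difference of 3.38 points in place of 16.7, a difference in missing non-CIN H3K27ac of 27.8 points in place of 13.7, 14 opposed stretches in place of 31 and 175 genes in place of 418. Requiring it over the centre gave 367, 0.768, 3.74 points, 26.6 points, 13 and 178 for the same quantities, and −log10 q of at least 4 gave 363 stretches, a ratio of 1.14, 20.2 points of missing non-CIN H3K27ac, 15 opposed stretches, 204 genes and a GC difference of -0.118 points in place of 2.06. The length ratio turned where an overlap at the edge did not count, and the GC difference turned at the stricter threshold; the cause was not tested. Within that SD, the promoter difference was 5.80 points at −log10 q of at least 4, 10.4 points at a gap of 0 bp and 25.8 points with promoters taken within 2.5 kb of a start. The difference between populations, 0.221 points as reported, kept its direction but was 0.0671 and 0.0923 points when H3K27me3 had to cover 50% or the centre and 0.628 points at the stricter threshold, and the GC difference was 0.652 and 0.0974 points under the 2 coverage rules. Merging at a gap of 0 bp moved the difference in missing non-CIN H3K27ac to 17.3 points.

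Leaving out 1 list in turn gave 824 to 1658 stretches, a difference between populations of -0.175 to 0.616 points (it turned without non-CIN H3K27me3 replicate 2), a length ratio of 1.24 to 1.37, a promoter difference of 9.34 to 25.5 points, a missing non-CIN H3K27ac difference of 8.65 to 13.4 points, 33 to 125 opposed stretches, 448 to 869 genes and a GC difference of 1.01 to 5.30 points. Stretch and gene counts rose when a list was dropped because fewer lists had to hold the peak. Opposed stretches were most numerous without non-CIN H3K27me3 replicate 1 (125), and stretches (1658) and genes (869) without CIN H3K27ac replicate 2.

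With the replicate number as a block, lists were paired by number, which gave 870 stretches, a difference of 0.336 points, a length ratio of 1.29, 14.2 and 13.6 points for promoters and missing H3K27ac, 34 opposed stretches, 446 genes and 1.86 points of GC, and changed no direction. Deviations of same-numbered H3K27me3 lists correlated at 0.172 over 2064 stretches, and the labels do not say which CIN and non-CIN samples came from the same sort, so numbers were not used to pair lists in the reported values. Depth is unknown, and a weak mark below the calling threshold cannot be told apart from none.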

Other observations

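The 104 stretches with H3K27me3 in both CIN lists and neither non-CIN list, the reverse of the pattern described above, were promoters in 60.6% of cases (31.8% of all stretches), lay a median of 780 bp from a protein-coding start and were acetylated in both non-CIN lists in 91.3% (76.9% of all). By the lower CIN H3K27ac percentile, the first 4 lay nearest Shc3, Nfib, Id1 and Zfp521, with H3K27me3 at percentiles 51.7 and 77.1, 14.9 and 51.9, 44.5 and 46.9, and 92.5 and 96.1 in the CIN lists. Nfib and Id1, regulators of glial and progenitor development, had their stretch within 1484 and 771 bp of a start. Further stretches of this kind lay nearest Hey2, a Notch target (96.4 and 97.8), Ccnd1, a cyclin (82.3 and 90.9), and Gja1, a gap junction protein of astrocytes (48.0 and 79.2), which were picked after their values were seen. Interneuron regulators were among the 104 as well. Maf, of the MGE list (43.6 and 34.3), and Rxrg, of the CGE list (58.7 and 72.9), had such a stretch at a start. Neurod6, an excitatory neuron marker, had H3K27me3 over 2247 and 5392 bp around its starts in CINs and 0 bp in both non-CIN lists, with H3K27ac over 824 to 1067 bp in CINs and 563 to 804 bp in non-CINs.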
